A study of Homo sapiens with 6 samples.

Results

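The genes described here are those of the cytosolic ribosomal proteins. They were taken by name from the authors' deposited table: a symbol that starts with RPL or RPS and a digit, or RPSA, RPLP0, RPLP1 or RPLP2, without pseudogenes, RPS6K kinases and hyphenated names. The rule found 55 of the 1099 genes in the table, 33 of the large and 22 of the small subunit, and dropped 4 rows (RPS2P5, RPL23AP42, RPSAP58 and the readthrough RPL36A-HNRNPH2). RefSeq has 87 protein-coding symbols that meet the same rule, so 63.2% of them were in the table, with 62.3% for the large and 64.7% for the small subunit.

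The study sequenced poly(A) RNA in 6 libraries from a human cancer line, 3 given DMSO as vehicle and 3 given F/B extract, all taken after 24 h and all labelled wild type. By the study's title the extract came from Flos Sophorae Immaturus and broccoli seed, and its dose is not in the labels. The labels call the line A549, from a lung adenocarcinoma, but the library names begin with AGS, the name of a gastric line. MTAP, a gene deleted in A549, stood at 48.9 to 60.5 TPM over the libraries, where TPM is a gene's length-corrected share of the transcripts scaled to a fixed total. Of 6 lung epithelial markers 0 were in the table, and of 13 gastrointestinal ones 5 were, all lower with extract, VIL1 among them at 142 to 214 TPM. MTAP goes against the label, while absence from a selected table says nothing of a marker's level, and the line is not settled here. Nothing states that the replicates were separate cultures, so p-values measure only library-to-library spread that may be technical.

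The table is not the whole transcriptome, and its rows were selected on the comparison of extract with vehicle: the deposited p-values fit ranks 1 to 1099 of 11289 tested genes, which is 9.74% of them, and the largest was 0.00535. A ribosomal protein gene that is not in the table was not analysed here. The fold changes and calls below therefore describe genes that had already been selected as different between the same libraries. Over the listed genes the estimated counts summed to between 3084337 and 4640114 per library, which is not the sequencing depth. Normalised counts are estimated counts divided by the size factors that the deposited fold changes imply, 0.92 to 1.23 over the libraries.

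A human ribosome joins a small subunit, which reads the messenger RNA, to a large subunit, which forms peptide bonds and threads the new chain through an exit tunnel. Core proteins other than the P1 and P2 stalk proteins are present in equal numbers, and their genes are known to be expressed together and at high levels. Their messages characteristically begin with a C and a run of pyrimidines, the 5′ terminal oligopyrimidine (TOP) tract, through which the kinase complex mTORC1 and the RNA-binding protein LARP1 control their translation. Several of the proteins are known for roles off the ribosome, such as the binding of MDM2 by RPL5, RPL11 and RPL23.

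The sequence around an annotated start of most of these genes holds a run of that kind, a feature that the naming rule did not use. RefSeq promoters (GRCh38.p14) were matched for 46 of the 55 genes. For each gene only the first promoter entry was read, and any other annotated start was not searched. A tract, read as a C followed by at least 4 C or T bases on the sense strand and beginning within 10 bases of the annotated start, was present in 40 of the 46 (87%), against 33.5% of all 35116 promoters of the same length of 300 bases. Here and below, all promoters include those of the members and were not reduced to a single entry per gene, as the members were. Runs of 10 bases or more were found in 32 members (69.6%), against 4.44% of all promoters. Where several runs met this rule only the longest was taken. That run began within 2 bases of the annotated start in 14 members, so for most members it is not shown that the message begins with it. The count leaves out members whose start lies inside a run, as in RPL35, where 15 bases began at -4. It also leaves out shorter runs nearer the start, as in RPL38, whose longest run began at 9. The windows below reach from 15 bases before the start to 14 bases past its first base, are written 5′ to 3′ on the strand of the gene, and have the tract in capitals. The first 6 are genes with the smallest p-values, the next 4 are among the genes with the highest levels, RPS3A had the smallest change, RPL22L1 is a paralog with a tract, and in the last 3 no tract was found.
RPL35 (chr9:124861943-124861972, minus strand): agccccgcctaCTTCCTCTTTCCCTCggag
RPL24 (chr3:101686704-101686733, minus strand): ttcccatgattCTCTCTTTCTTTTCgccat
RPL21 (chr13:27251543-27251572, plus strand): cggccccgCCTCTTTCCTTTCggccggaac
RPS21 (chr20:62387088-62387117, plus strand): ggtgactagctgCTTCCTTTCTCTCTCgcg
RPL37A (chr2:216498829-216498858, plus strand): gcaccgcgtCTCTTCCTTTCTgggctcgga
RPS27A (chr2:55231888-55231917, plus strand): taaggagtgacacacaagacccagaCTCTT
RPS27 (chr1:153990747-153990776, plus strand): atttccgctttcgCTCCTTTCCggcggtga
RPS18 (chr6:33272060-33272089, plus strand): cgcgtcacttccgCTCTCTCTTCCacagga
RPS23 (chr5:82278340-82278369, minus strand): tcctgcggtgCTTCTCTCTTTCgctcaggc
RPL41 (chr12:56116618-56116647, plus strand): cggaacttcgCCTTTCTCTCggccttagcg
RPS3A (chr4:151099613-151099642, plus strand): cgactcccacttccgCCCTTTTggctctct
RPL22L1 (chr3:170870181-170870210, minus strand): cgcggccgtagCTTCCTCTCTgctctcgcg
RPL27 (chr17:42998404-42998433, plus strand): ccggggtgaaaggttagcggaagtgtcctt
RPS27L (chr15:63157463-63157492, minus strand): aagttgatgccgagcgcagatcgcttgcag
RPL7L1 (chr6:42879601-42879630, plus strand): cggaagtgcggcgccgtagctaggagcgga

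In RPS27A the tract runs on past the end of the window, to 9 bases in all. RPL17, RPL6 and RPS29 were the other matched genes without it. That says only that no such run begins within 10 bases of the RefSeq start that was read. A run may lie just outside, as in RPL17, or at another start of the gene. For RPL6 the window read (chr12:112411428-112411457, minus strand) lies inside the gene, which GENCODE places at 112405190 to 112418838. Of short motifs searched on both strands of the 300 bases, CCGGAAG (the ETS core) was found in 19 of 46 members (41.3%) against 10.3% of all promoters, and ATGGCG (a YY1 core) in 16 (34.8%) against 10.7%. CCGGAAG overlapped the tract in 2 members, and ATGGCG lay on the sense strand past the start in 3. GGGCGG (the SP1 core) was in 52.2% of members and 45% of all promoters, TATAAA in 4.35% and 11.5%, and the E-box CACGTG in 4.35% and 7.26%. These are matches of letters, not binding sites.

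Ribosomal protein genes filled a large share of the TPM total. Their summed level was 146203, 142712 and 138724 TPM in vehicle replicates 1 to 3 and 132983, 125300 and 127862 TPM in extract replicates 1 to 3, so the groups did not overlap. The sum over all listed genes, the members included, was also lower without overlap. It was 323139 to 330818 TPM with vehicle and 300550 to 310547 TPM with extract. The means of the ribosomal protein genes were 142546 ± 3742 and 128715 ± 3912 TPM (SD, n = 3 each), which is 14.3% and 12.9% of the TPM total, and their ratio was 0.903. The large subunit genes went from 65900 ± 1243 to 59741 ± 864 TPM and the small subunit genes from 76646 ± 2536 to 68974 ± 3066 TPM (SD, n = 3 each). In normalised counts the same sums were 16.4% lower with extract, against 9.7% in TPM. In bulk RNA, fewer cells of a kind and less RNA per cell cannot be told apart. Sums over genes of a table that was selected on the comparison carry no test.

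Levels varied widely among genes whose proteins are mostly used in equal numbers. Mean TPM over the 6 libraries ran from 30.8 for RPL39L to 10041 for RPS27, with a median of 2032, and the medians for the large and small subunit were 1507 and 2541. RPS27, a zinc finger protein of the small subunit, was at 10992, 10141 and 9942 TPM with vehicle and 10516, 8911 and 9747 TPM with extract. Other high levels were those of RPL41, whose product is among the smallest proteins known, at 6930 TPM, RPS18 at 6397 TPM, RPS23 at 5851 TPM and RPL13A at 4981 TPM. The libraries of RPL41 (6706 to 7261 TPM) overlapped those of RPS18 (5671 to 7027 TPM), as did those of RPS18 and RPS23 (4782 to 6594 TPM), so the order within these pairs does not exceed their spread. The lowest levels belonged to the paralogs, at 30.8 TPM for RPL39L, 90 for RPL22L1, 138 for RPL7L1 and 243 for RPS27L, with RPL36AL higher at 625, and to RPL9 at 74.5 TPM.

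**Figure D1:**
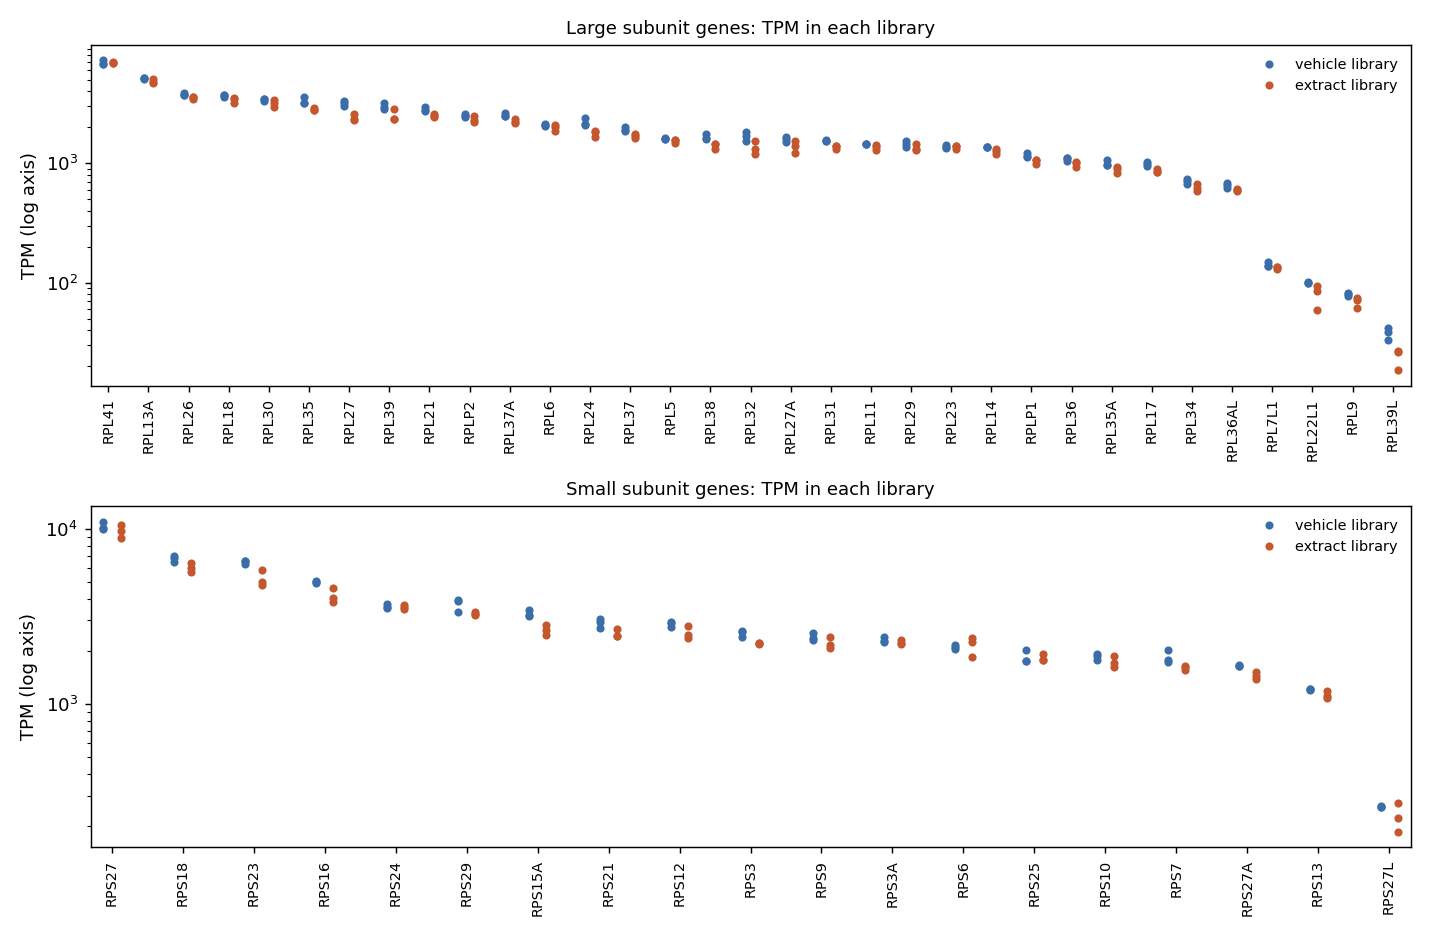
TPM (log axis) of 52 ribosomal protein genes in the 3 vehicle and 3 extract libraries, 1 point per library, for the large subunit (top) and the small subunit (bottom), ordered by mean TPM. RPS27 is highest, at a mean of 10041 TPM, and RPL9 and 4 of the 5 paralogs (RPL7L1, RPL22L1, RPL39L and RPS27L) lie lowest, at means of 30.8 to 243 TPM.

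RPL9 is a core protein. Its estimated counts were not whole in any of the 6 libraries, and GENCODE release 29 annotates 17 RPL9 pseudogenes. Counts were not whole in all 6 libraries for 14 members: RPL6, RPL7L1, RPL9, RPL13A, RPL17, RPL21, RPL30, RPL39, RPL39L, RPL41, RPS3A, RPS10, RPS15A and RPS29. These had a median of 15 annotated pseudogenes, up to 66 for RPL21, against 4 for the other 41 members. Pseudogenes were counted by name, in a form that names built on paralog symbols cannot match. RPL39L, RPL7L1 and the other paralogs therefore enter these medians at 0 by construction. Reads from a gene and its copies may not be told apart, so the values of these 14 genes are uncertain. The part of copies in any level was not tested, and RPS3A, with 38 annotated pseudogenes, stood at a mean of 2284 TPM. Of these 14 genes 10 passed the test below, and of the other 41, 36 did. Of all listed genes 52.8% were called lower, which is 580 of the 712 that were lower. The difference between the sets of members was not tested. Counts were not whole in some library for 39 members, and in each library for 31.8% to 35.9% of all listed genes. Of the dropped rows, RPSAP58 stood at a log2 fold change of -0.50 (edgeR adjusted p = 0.0124), RPL36A-HNRNPH2 at -0.89 (0.0206), RPL23AP42 at -0.30 (0.0612) and RPS2P5 at -0.23 (0.0801).

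All 55 genes had lower normalised counts with extract, and 46 of them (83.6%) fell by edgeR's quasi-likelihood test at an adjusted p under 0.05, while 52.8% of all listed genes were called lower. The median log2 fold change was -0.28, or 17.5% lower, against -0.22 for all listed genes and -0.29 for the listed genes that were lower. In the large subunit 29 of 33 genes fell, with a median of -0.27, and in the small subunit 17 of 22, with a median of -0.30. The groups did not overlap in normalised counts for 54 of the 55 genes, RPL29 being the exception, against 63.9% of listed genes that were lower without overlap. Of the 712 listed genes that were lower, the members included, 580 were called lower and 702 had separate groups. Both shares of the members are therefore close to those of lower genes in this selected table. On 2 of the other scales the sign turned for some members, by at most 0.03 (log2): 4 with TMM and 10 with the median-of-ratios factors of DESeq2. These 2 scales moved the median of all listed genes up by 0.15 and 0.17, which left 8 members called on each. RPL41 and RPS6 had the higher mean with extract in TPM. Leaving out replicate 2 of the vehicle turned the 46 calls into 11, leaving out its replicate 3 into 28, and leaving out replicate 2 of the extract into 16. A scale taken from the TPM values gave 23, where 19.7% of all listed genes were called lower. On the TMM and median-of-ratios scales and with a library left out, calls over all listed genes were not counted. These drops are therefore not shown to be particular to the members.

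**Figure D2:**
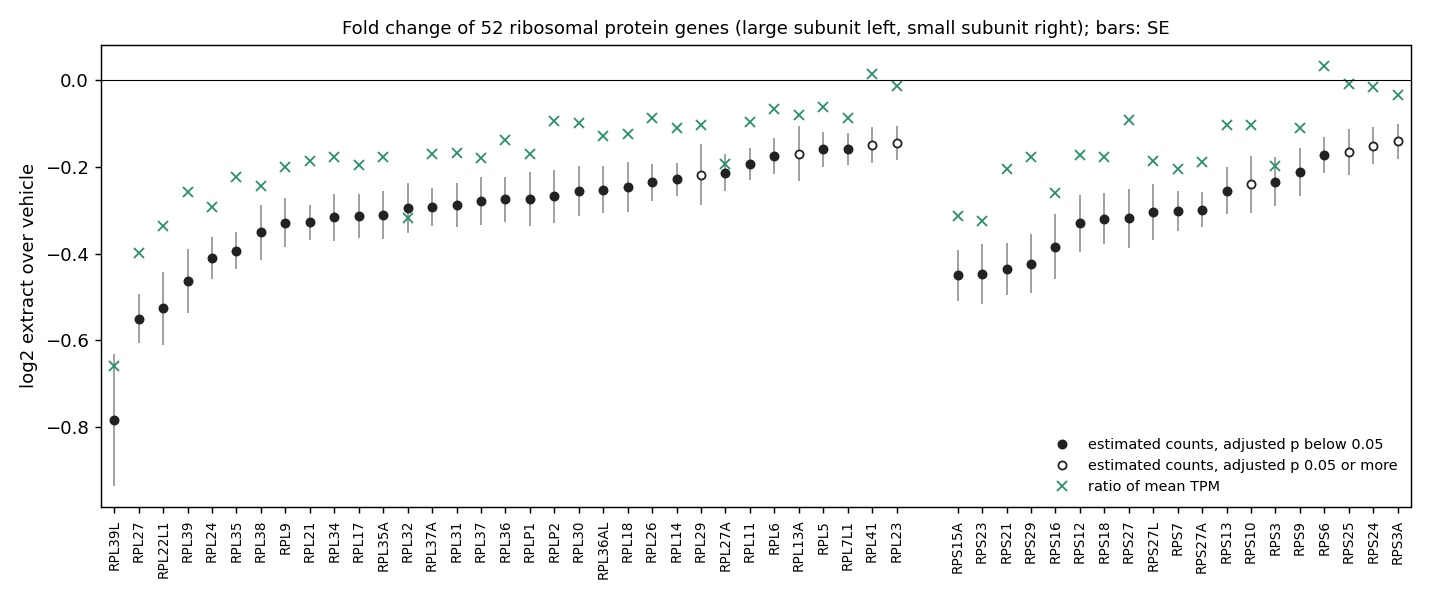
Log2 fold change, extract over vehicle, of 52 ribosomal protein genes from estimated counts (circles with SE bars, filled where the edgeR adjusted p was below 0.05) and as the ratio of mean TPM (crosses). All circles lie below 0, from -0.78 for RPL39L to -0.14 for RPL23 and RPS3A, and the crosses lie above the circles in all genes but RPL32.

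The gene with the smallest p-value was RPL27, a large subunit protein (ENSG00000131469, GRCh38 chromosome 17, 42998273 to 43002959). It had 10092, 10433 and 9493 normalised counts in vehicle replicates 1 to 3 and 7346, 6491 and 6662 in extract replicates 1 to 3. Every extract library lay well below every vehicle library, and the mean went from 10006 ± 476 to 6833 ± 453 (SD, n = 3 each). Its log2 fold change was -0.55 (SE 0.06), with an adjusted p of 0.00138 by edgeR. In TPM it went from 3302, 3184 and 2983 to 2556, 2289 and 2344, again without overlap. Together with RPS15A it was called lower in each of the 19 alternative fits, and these were also the only members called by limma on log2(TPM + 1), where 6.82% of listed genes were called lower.

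RPL35 and RPL24 of the large subunit followed. RPL35, which sits beside the exit of the peptide tunnel, had 8230, 8113 and 7737 normalised counts with vehicle and 6314, 5971 and 6051 with extract. The log2 fold change was -0.39 (SE 0.04; adjusted p = 0.0019 by edgeR), with tight replicates in both groups. RPL24, which forms a bridge to the small subunit, had 8299, 7919 and 7685 normalised counts with vehicle and 6136, 5673 and 6171 with extract, or -0.41 (SE 0.05, edgeR adjusted p = 0.00261). Its groups were separate in TPM as well, at 2369, 2066 and 2103 against 1827, 1668 and 1841.

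RPL21 and RPL37A completed the large subunit genes among the 8 smallest p-values. RPL21 had 11309, 11128 and 10924 normalised counts with vehicle and 8728, 8702 and 9152 with extract, or -0.33 (SE 0.04, edgeR adjusted p = 0.00282). RPL37A, a zinc-binding protein, had 9137, 9637 and 9091 with vehicle and 7884, 7371 and 7503 with extract, or -0.29 (SE 0.04, edgeR adjusted p = 0.00567). In both genes the spread within a group was a few percent of the level, and the groups did not overlap in either unit.

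Among small subunit genes the smallest p-values were those of RPS15A, RPS27A and RPS21. RPS15A (ENSG00000134419, chromosome 16, 18781295 to 18790383) had 11958, 11915 and 11360 normalised counts with vehicle and 9362, 7982 and 8455 with extract, or -0.45 (SE 0.06, edgeR adjusted p = 0.00369). RPS27A is made as a fusion with ubiquitin, so its message yields both proteins, and it had 10717, 11388 and 10876 normalised counts with vehicle and 8813, 8899 and 9114 with extract, or -0.30 (SE 0.04, edgeR adjusted p = 0.00423). RPS21 had 3930, 4285 and 3768 with vehicle and 2794 to 3147 with extract, or -0.44 (SE 0.06, edgeR adjusted p = 0.00431). All 3 were lower without overlap also in TPM, and the 8 genes RPL27, RPL35, RPL24, RPL21, RPL37A, RPS15A, RPS27A and RPS21 kept their call with any single library left out, with adjusted p of at most 0.0444.

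The most abundant genes moved less evenly. RPS23, which lies at the decoding centre and helps set translational accuracy, had 17500, 18936 and 17442 normalised counts with vehicle and 14630, 12207 and 12702 with extract, or -0.45 (SE 0.07, edgeR adjusted p = 0.00616). RPS18, in the head of the small subunit, had 24989, 25904 and 23933 with vehicle and 21544, 18769 and 19665 with extract, or -0.32 (SE 0.06, edgeR adjusted p = 0.0124). RPS27 had 13386, 14035 and 12992 with vehicle and 11615, 9613 and 11180 with extract, or -0.32 (SE 0.07, edgeR adjusted p = 0.0209). Extract replicate 1 was the highest extract library in each of these genes. The call of RPS18 was lost without vehicle replicate 2 (adjusted p = 0.0741) or extract replicate 2 (0.0677), and that of RPS27 with replicate 2 (0.114) or 3 (0.0527) of the vehicle or replicate 2 of the extract (0.0664) left out.

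RPL13A and RPL41, also among the most abundant genes, did not pass the test. RPL13A, also known as part of a complex that silences inflammatory messages, had 53386, 55764 and 54127 normalised counts with vehicle and 52659, 48092 and 44464 with extract, or -0.17 (SE 0.06, edgeR adjusted p = 0.262). Its extract replicate 1 was close to the vehicle libraries, and without it RPL13A passed (adjusted p = 0.0304). RPL41 had 18934, 19078 and 18269 with vehicle and 17281, 16628 and 16844 with extract, or -0.15 (SE 0.04, edgeR adjusted p = 0.0601), while its TPM went from a mean of 6896 to 6963 with overlapping groups.

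The smallest changes besides RPL41 were in RPS3A and RPL23. RPS3A had 18215, 17684 and 17487 normalised counts with vehicle and 16212, 15983 and 16221 with extract, or -0.14 (SE 0.04, edgeR adjusted p = 0.0651). RPL23, which faces the small subunit, had 6524, 6530 and 6265 with vehicle and 5721, 5903 and 5851 with extract, or -0.14 (SE 0.04, edgeR adjusted p = 0.0519). In both genes the groups were separate in normalised counts but overlapped in TPM. Both fold changes turned to 0.01 with TMM and to 0.03 with median-of-ratios factors. Other genes that missed the threshold were RPS10 at -0.24 (edgeR adjusted p = 0.0543), RPS24 at -0.15 (0.066), RPS25 at -0.16 (0.123) and RPL29 at -0.22 (0.129). RPL29 was the gene whose groups overlapped in normalised counts, at 8395, 9788 and 9078 with vehicle and 8596, 7483 and 7377 with extract. It passed without extract replicate 1 (edgeR adjusted p = 0.0138), as did RPS10 (0.00454) and RPS24 (0.0355).

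A further set of members passed the test with intermediate values. In the large subunit they ran from -0.46 for RPL39, which narrows the peptide tunnel, through RPL38 (-0.35), RPL9 (-0.33), RPL34 (-0.32), RPL17 and RPL35A (both -0.31), RPL31 and RPL32 (both -0.29), RPL37 (-0.28), RPL36 (-0.27), RPL30 (-0.26), RPL18 (-0.25), RPL26 (-0.24), RPL14 (-0.23) and RPL27A (-0.21) to RPL6 (-0.17). In the small subunit they ran from -0.42 for RPS29 through RPS16 (-0.38), RPS12 (-0.33), RPS7 (-0.30), RPS13 (-0.25) and RPS3 (-0.23), which lies at the messenger entry channel, to RPS9 (-0.21). All had separate groups in normalised counts. RPS9 had the largest adjusted p of these, at 0.0449, and lost its call in each case but the one without extract replicate 1 (0.112 to 0.218). RPL6 and RPS3 were also called in only 1 of the 6 fits that leave out a library, with adjusted p up to 0.133 and 0.169, and RPL18, RPL30 and RPS13 in 2 of 6. Of the genes in this paragraph, RPS29 and RPS7 were called in all 6 and the others in 3 to 5.

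The 5 paralogs, encoded by separate genes that resemble a core ribosomal protein, all fell, with a median of -0.30. RPL39L, a copy of the tunnel protein RPL39, had the largest change of all members. It had 203, 244 and 256 normalised counts with vehicle and 153, 106 and 151 with extract, or -0.78 (SE 0.15, edgeR adjusted p = 0.0157), at the lowest counts and the highest spread of any member. RPL22L1, the paralog of RPL22, had 551, 551 and 531 with vehicle and 343, 371 and 420 with extract, or -0.53 (SE 0.08, edgeR adjusted p = 0.00725). RPL39L lost its call with replicate 2 (adjusted p = 0.0878) or 3 (0.0636) of the vehicle or replicate 2 of the extract (0.0582) left out, and RPL22L1 without vehicle replicate 2 (0.0526).

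RPS27L, a paralog of RPS27 known as a p53 target, had 2315, 2127 and 2121 normalised counts with vehicle and 1653, 1731 and 1930 with extract, or -0.30 (SE 0.06, edgeR adjusted p = 0.0206). In TPM its extract libraries spread from 186 to 272 and straddled the vehicle libraries at 257 to 262. RPL36AL had 3190, 3561 and 3592 with vehicle and 2998, 2907 and 2784 with extract, or -0.25 (SE 0.05, edgeR adjusted p = 0.0232), and RPL7L1, a nucleolar relative of RPL7, had 4256, 4313 and 4385 with vehicle and 3880, 3861 and 3863 with extract, or -0.16 (SE 0.04, edgeR adjusted p = 0.0303). These 3 calls were the less stable ones. RPS27L lost its call without vehicle replicate 1, 2 or 3 or extract replicate 2 (adjusted p 0.0532 to 0.0969), RPL36AL without vehicle replicate 2 or 3 or extract replicate 2 or 3 (0.0614 to 0.127), and RPL7L1 in every case but the one without extract replicate 3 (0.0524 to 0.149). Of paralog pairs with both genes listed, RPL39 was at -0.46 (SE 0.07) beside RPL39L, and RPS27 at -0.32 beside RPS27L, and the differences within pairs were not tested.

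RPL5 and RPL11, which carry 5S rRNA into the large subunit and bind MDM2, were at -0.16 (SE 0.04, edgeR adjusted p = 0.041) and -0.19 (SE 0.04, edgeR adjusted p = 0.0146). RPL11 had 8373, 8528 and 8260 normalised counts with vehicle and 7321, 7393 and 7291 with extract, and RPL5 had 15214, 16003 and 15280 with vehicle and 13865, 13985 and 13791 with extract, so replicates of both were close. The call of RPL5 was lost whichever library was left out (adjusted p 0.0735 to 0.216), and that of RPL11 with replicate 2 (0.0877) or 3 (0.0527) of the vehicle or replicate 2 of the extract (0.0763) left out. The stalk proteins RPLP1 and RPLP2, which recruit elongation factors, were both at -0.27 (edgeR adjusted p = 0.0263 and 0.0271). Both lost their call with replicate 2 or 3 of either group left out (adjusted p 0.0544 to 0.131 for RPLP1 and 0.0842 to 0.133 for RPLP2), and neither was called on any of the other 4 scales. RPS6, the substrate of the S6 kinases downstream of mTORC1, was at -0.17 (edgeR adjusted p = 0.0323), with 28343, 28949 and 27962 normalised counts against 25182, 25344 and 25106. In TPM, RPS6 stood at 2069, 2159 and 2113 with vehicle and 1859, 2263 and 2370 with extract, where 2 of the 3 extract libraries were above all vehicle ones. Its call was lost in each case but the one without extract replicate 3 (0.0591 to 0.155).

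**Figure D3:**
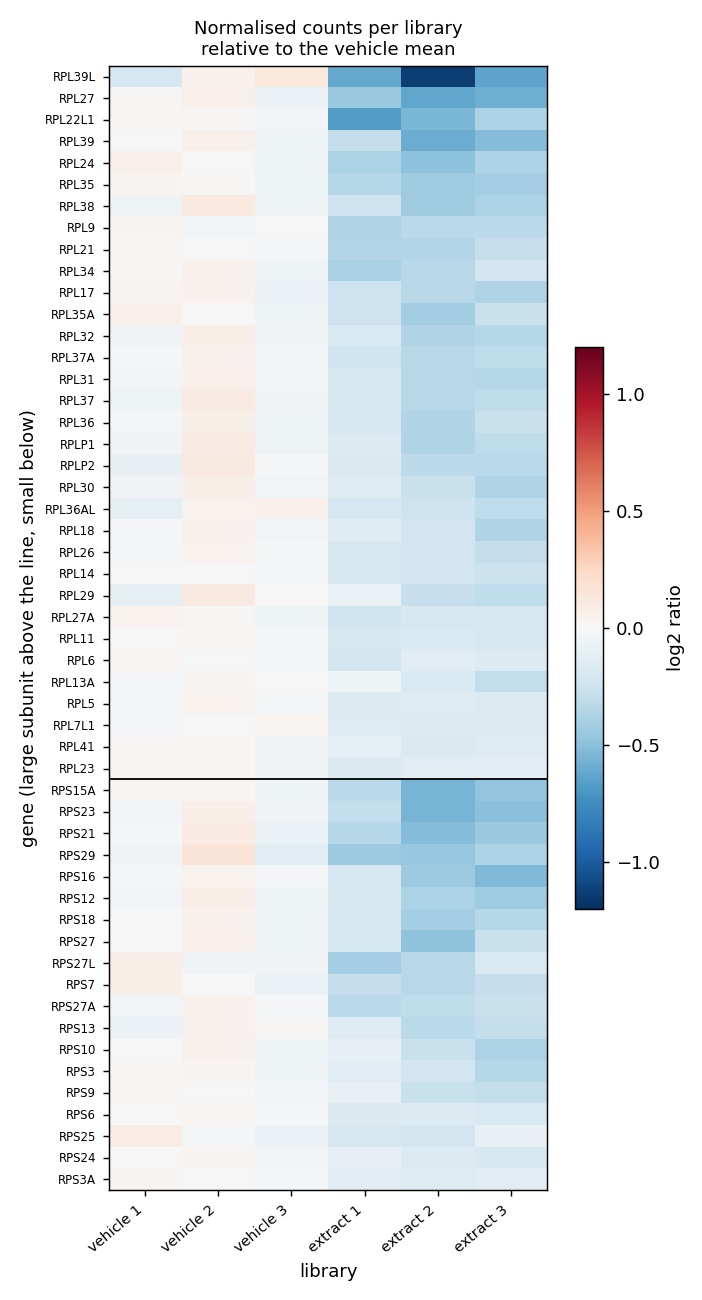
Log2 ratio of normalised counts in each library to the vehicle mean of the same gene, for the 33 large subunit genes (above the line) and 19 small subunit genes (below it), ordered by fold change. The 3 extract columns are below the vehicle mean throughout, and extract replicate 1 is paler than replicates 2 and 3 in most rows.

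Many members had the same order of libraries within a group. In normalised counts vehicle replicate 2 was the highest vehicle library in 38 of 55 genes and vehicle replicate 3 the lowest in 38, and extract replicate 1 was the highest extract library in 36. These orders were not counted over all listed genes. In vehicle replicates 2 and 3 the median member stood at a log2 ratio of 0.05 and -0.04 to the vehicle mean, and the median listed gene at 0.01 and 0.00. The median member stood at -0.20, -0.33 and -0.30 on the log2 scale in extract replicates 1 to 3 relative to the vehicle mean, where the median listed gene stood at -0.17, -0.21 and -0.22. In TPM the order differed: vehicle replicate 1 was the highest in 35 genes, and the median member stood at -0.14, -0.20 and -0.14 in the extract libraries, against -0.12, -0.13 and -0.08 for the median listed gene. The spread within a group was small, with a median coefficient of variation of 3.86% over the vehicle libraries and 5.81% over the extract libraries, beside 4.05% and 5.17% for all listed genes. RPL39L and RPL29 were among the members with the highest mean coefficients of variation over both groups.

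Counts and TPM gave different sizes for the same genes. The median log2 ratio of mean TPM was -0.17, against -0.28 in normalised counts, and all members but RPL32 had the higher ratio in TPM. The groups did not overlap, with extract lower, for 37 of the 55 genes in TPM, against 44.2% of all listed genes, and for 26 of the large and 11 of the small subunit. On the scale taken from TPM, edgeR called 23 of 55 members lower, 14 and 9 by subunit, where 19.7% of all listed genes were called lower. Both shares of listed genes are over genes of either direction, of which 64.8% were lower on the deposited scale. That scale moves every gene by the same amount, a median of 0.08 upward over all listed genes.

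The difference between the 2 units was larger in short genes. For the 20 members under 600 bases by the deposited gene length, the log2 change in TPM lay a median of 0.16 above that in normalised counts, and for the 31 other listed genes of that length 0.15 above it. From 600 to under 1000 bases the medians were 0.12 (21 members) and 0.11 (80 other genes), and from 1000 bases on they were 0.12 (14 members) and 0.08 (933 other genes). RPS27, with 352 bases, had a difference of 0.23 and RPS21, with 401 bases, of 0.23, so that -0.32 in counts became -0.09 in TPM for RPS27, and -0.44 became -0.20 for RPS21. The median length was 709 bases for the members and 2998 for all listed genes. The deposited length is not the one behind the TPM values: RPL37, listed at 7573 bases, had 4.23 estimated counts per TPM in vehicle replicate 1, and RPL27, listed at 460 bases, had 2.87. The part of fragment or transcript lengths in these differences was not tested.

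**Figure D4:**
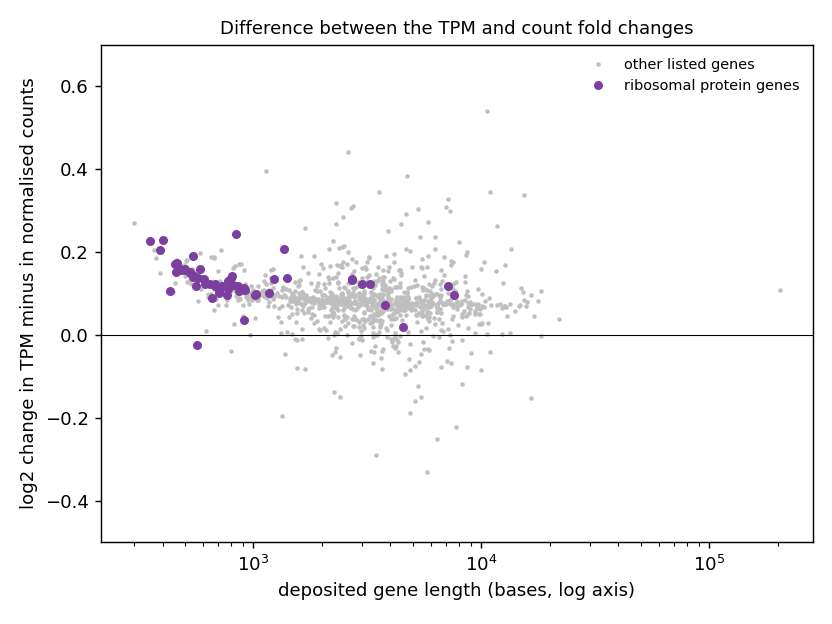
For each listed gene, the log2 change (extract over vehicle) in mean TPM minus that in mean normalised counts, against the deposited gene length in bases (log axis), with ribosomal protein genes in purple and the other genes in grey (1 of these lies outside the axis range). Values rise toward the shortest genes in both sets, and RPL32 is the only ribosomal protein gene below 0.

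Other genes of the ribosome and its assembly lay beside these values. Of 3 ribosomal protein genes that the naming rule misses 2 were listed, both lower, and 1 passed the test. That gene was FAU, whose product is processed to the small subunit protein RPS30, at -0.29 (SE 0.04, edgeR adjusted p = 0.0067). On the scale taken from TPM edgeR called 1 of the 2, and with sums of counts, TMM or median-of-ratios factors 0. Of 39 ribosome biogenesis and nucleolar genes 26 were listed, all lower and 24 past the test, with a median of -0.30. Of all listed genes 64.8% were lower and 52.8% were called lower, and the listed lower genes had a median of -0.29. NOP16 was at -0.52, GNL3 at -0.44 and DDX21 at -0.33. Leaving out replicate 2 or 3 of the vehicle turned the 24 into 7 and 10, leaving out replicate 2 of the extract into 9, and 26 without extract replicate 1. On the scale taken from TPM they became 13, with sums of counts 9, with TMM 4 and with median-of-ratios factors 3, and no sign turned. Of 16 genes for ribosomal protein chaperones and subunit maturation 5 were listed, all lower on every scale, and SBDS at -0.27, LTV1 at -0.30 and EIF6 at -0.30 passed. On the other 4 scales edgeR called 0 of them, with 5, 3, 2 and 0 at an unadjusted p under 0.05 (TPM, sums, TMM and median-of-ratios), while DESeq2 on the deposited scale called 5 and limma-voom 3. Without vehicle replicate 2 or 3 or extract replicate 2 or 3, 2, 1, 2 and 2 of these 5 passed, and all 5 without vehicle replicate 1 or extract replicate 1.

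Mitochondrial ribosomal proteins, which serve a separate ribosome, were listed much less fully: 9 of 77 names, or 11.7%, beside the 63.2% of cytosolic ones. All 9 were lower on every scale and passed, beside the same 52.8% called lower over all listed genes, with a median of -0.27 against -0.29 for the listed lower genes, among them MRPL51 at -0.25 and MRPL52 at -0.40. On the other 4 scales edgeR called 0 of the 9, with 8, 5, 3 and 3 at an unadjusted p under 0.05 (TPM, sums, TMM and median-of-ratios). Without vehicle replicate 2 or extract replicate 2 it also called 0, with 9 at an unadjusted p under 0.05, and without vehicle replicate 3 it called 1. DESeq2 and limma-voom on the deposited scale each called all 9, and limma on log2(TPM + 1) called 0, with 6 at an unadjusted p under 0.05. The difference in medians from the cytosolic genes was not tested.

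Other messages known to begin with a TOP tract did not all share the direction. Of 18 such genes 7 were listed, and EEF1B2, a subunit of elongation factor 1, at -0.18, GAS5 at -0.22 and NACA at -0.20 passed the test (edgeR adjusted p = 0.0477, 0.0445 and 0.0153). BTF3 at -0.13 and IPO5 at -0.14 did not (0.065 and 0.0964). PABPC1, the poly(A)-binding protein, was higher at 0.21 (SE 0.05, edgeR adjusted p = 0.0269), as was VIM at 0.67 (SE 0.12, edgeR adjusted p = 0.0111). On the other 4 scales edgeR called both higher genes and 0 of the lower ones, with 1 lower at an unadjusted p under 0.05 on the scale taken from TPM and 0 on the rest; DESeq2 and limma-voom on the deposited scale called 5 and 2 lower. Without vehicle replicate 2 or extract replicate 2 edgeR called 0 of the 7, all of them at an unadjusted p under 0.05, and without vehicle replicate 3 it called 3 lower genes and 0 higher ones, both higher ones at an unadjusted p under 0.05. With TMM or median-of-ratios factors 4 of the 7 had higher values with extract, and with sums of counts 3.

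Of 20 genes of mTOR signalling toward these messages 2 were listed: the translation repressor EIF4EBP2 was higher at 0.23 (SE 0.05, edgeR adjusted p = 0.0167), and its target, the cap-binding protein EIF4E, was lower at -0.21 (SE 0.04, edgeR adjusted p = 0.0162). Of 13 transcription factors linked to ribosomal protein promoters, MYC was at -0.36 (SE 0.09, edgeR adjusted p = 0.0322) and its partner MAX at -0.20 (SE 0.04, edgeR adjusted p = 0.0249). None of these 4 was called by edgeR once replicate 2 or 3 of the vehicle, or replicate 2 of the extract, was left out, though all had an unadjusted p under 0.05 there. On the other 4 scales EIF4EBP2 was called on each and EIF4E on none, and of MYC and MAX 1 was called on the scale taken from TPM and 0 on the rest, where 1 had an unadjusted p under 0.05. EIF4E had an unadjusted p under 0.05 on the scale taken from TPM alone. The other genes of both lists were not in the table. MYC went from 218 to 181 TPM and EIF4EBP2 from 29.7 to 36.7 TPM as group means.

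**Figure D5:**
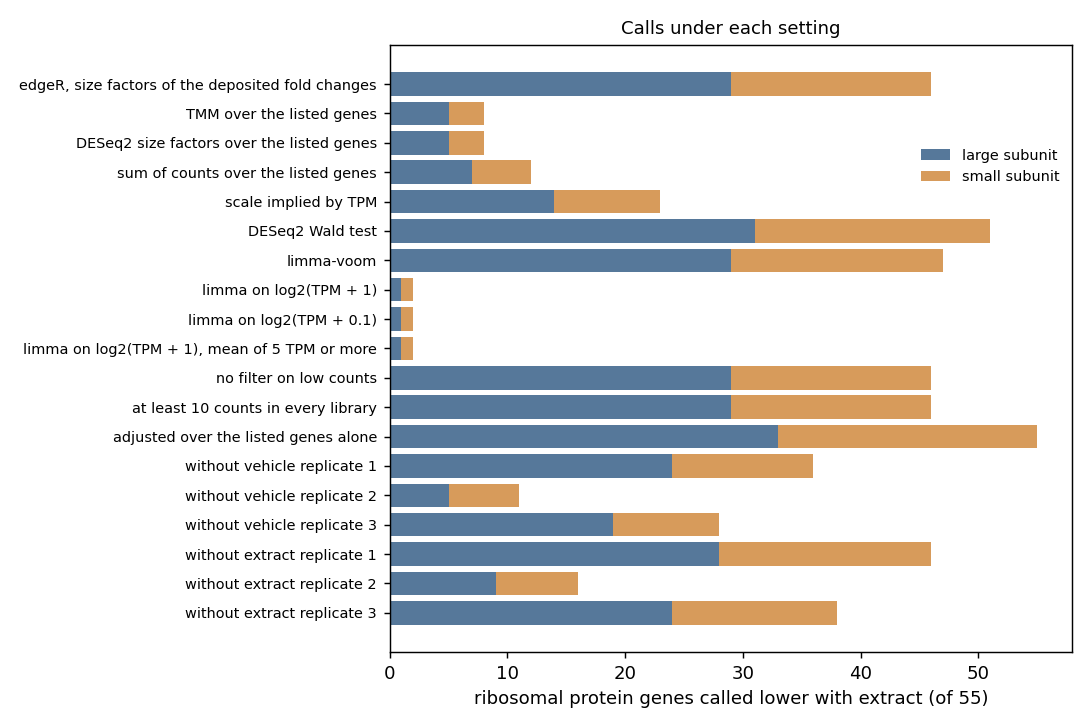
Number of the 55 ribosomal protein genes called lower with extract under each scaling, test, filter and left-out library, split into large and small subunit. The count is 46 with the size factors of the deposited fold changes, 8 with TMM or median-of-ratios factors, 2 in limma on log2 TPM, and between 11 and 46 with 1 library left out.

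Calls that held across these choices were fewer. Of the 55 genes 11 were called in each of the 6 fits that leave out a library, and 7 on all 4 other scales (RPL24, RPL27, RPL35, RPL39, RPS15A, RPS21 and RPS23). RPL39 lost its call without vehicle replicate 2 (edgeR adjusted p = 0.0511), and the other 6 were called in all 10 of these fits. How many of all listed genes kept their call in the same way was not counted.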

How the data were processed

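The authors deposited 1 table with estimated counts and TPM values per library, a gene length, and their own comparison as a fold change (ratio), a log2 fold change, p-values and adjusted p-values, per the file headers. The deposited log2 values are vehicle over extract; directions here are extract over vehicle. The submitters' processing notes name GRCh38.p13; which aligner and counter were used is not given in the sources used here. Members and lists were chosen with earlier results of these data known.

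Estimated counts were rounded to whole numbers. Size factors were fitted so that DESeq2 fold changes matched the deposited ones (median absolute log2 difference 6.39e-05, largest 0.00135), since TMM over genes selected as changed centres on them. Genes were tested across the whole table by the quasi-likelihood test of edgeR 4.0.16 (R 4.3.3), with Benjamini-Hochberg adjustment over 11289 genes, the number the deposited p-values imply, and a threshold of 0.05. The low-count filter removed 0 genes. SE is the absolute log2 fold change over the square root of F. The script was tested on simulated data. DESeq2 1.42.0 and limma 3.58.1 (voom, and log2(TPM + 1) or log2(TPM + 0.1)) were alternatives, as were 4 other scales, a minimum of 10 counts or of 5 mean TPM, a replicate block and leaving out each library. TPM tests are on the log2(value + pseudocount) scale. A few genes are not reported here by name. By rule, values per library are for: the 6 with the highest TPM, the 8 with the smallest p, the 3 largest and 3 smallest changes, the 3 highest coefficients of variation, and paralogs; of other lists, up to 4 genes by smallest p. RPL5, RPL11, RPS6, EEF1B2, BTF3 and IPO5 were added after their values were seen. Gene positions are from GENCODE release 29 (GRCh38), sequences from RefSeq (GRCh38.p14).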

Additional observations from a re-analysis of the deposited data

How the results depend on the processing

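The count of members called lower (46: 29 large, 17 small) stayed within 1.5 times with DESeq2 (51), limma-voom, both filters and adjustment over the listed genes alone. It was 8 (5 and 3) with TMM as with median-of-ratios factors, 12 (7 and 5) after scaling by sums, 23 (14 and 9) after scaling by TPM, and 2 (1 and 1) with limma on log2(TPM + 1), on log2(TPM + 0.1) and with a minimum of 5 mean TPM. The 4 scales raise the median listed log2 fold change by 0.15, 0.17, 0.14 and 0.08. With 1 library left out it was 11 to 46, with 5 to 28 for the large and 6 to 18 for the small subunit. The lowest of these came without vehicle replicate 2 (11), extract replicate 2 (16) and vehicle replicate 3 (28). The cause was not tested, and calls over all listed genes were not counted in the fits with a library left out.

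With the replicate block it was 25 (15 and 10). The labels give same-numbered libraries nothing in common but the number. Deviations of same-numbered libraries from their group means correlated at -0.231, -0.00967 and -0.0321, and no library correlated best with its own number. Deviations within a group sum to 0 by construction, and the genes were selected on the comparison. These values therefore cannot decide whether the replicates were made in pairs.

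Among the members reported by name, signs turned by at most 0.03 under median-of-ratios factors in RPL23 and RPS3A (0.03), RPL41, RPL7L1 and RPS24 (0.02), RPL5 and RPS25 (0.01) and RPL13A and RPS6 (0.00). With TMM they turned in RPL23, RPL41 and RPS3A (0.01) and RPS24 (0.00). In the 3 limma fits on log2 TPM they turned in RPL41 (0.01) and RPS6 (0.03). The ratio of summed TPM, 0.903, was 0.888 to 0.915 with a library left out, 0.903 without paralogs and 0.836 in normalised counts. Sequencing depth is unknown here, so no limit from depth is given.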
